A study of Mus musculus with 4 samples.

Results

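The genes described here are 8 Toll-like receptors (TLRs), Tlr1, Tlr2, Tlr3, Tlr4, Tlr6, Tlr7, Tlr8 and Tlr9, with the adaptor Myd88 and the coreceptor Cd14, in mouse peritoneal macrophages. They were chosen by name, as the rows of the count table whose gene symbol equals one of these names, and all 10 had a row among the 13834 genes listed. The table lists a gene only where all 4 samples have a value above 0, so a gene at 0 in any sample is not in it.

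Toll-like receptors are membrane proteins with which macrophages recognise microbial molecules. Tlr1, Tlr2, Tlr4 and Tlr6 sit at the cell surface and bind lipoproteins or, with Cd14 and Ly96, lipopolysaccharide, whereas Tlr3, Tlr7, Tlr8 and Tlr9 are carried by the chaperone Unc93b1 into endosomes, where most of them bind nucleic acids. Every one of these receptors except Tlr3 signals through Myd88, and the signal ends in NF-κB, MAP kinase and interferon regulatory factor activity and in the transcription of cytokine genes.

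RNA was sequenced from 4 samples of peritoneal macrophages, 2 per genotype (Dnmt1 fl/fl and Dnmt1 KO), from mice 10 weeks old, washed from the abdominal cavity 3 days after an injection of thioglycolate broth, which draws leukocytes into it. Both genotypes carry the floxed Dnmt1 gene, and the Dnmt1 KO mice add Cre recombinase under the LysM promoter, which acts in myeloid cells and so leaves Dnmt1 in other cells of the lavage. The comparison asks how the loss of Dnmt1, the enzyme that copies methyl groups at CpG dinucleotides (a C followed by a G) onto new DNA strands, bears on transcript levels. Total counts were 20228071 and 24198943 in replicates 1 and 2 of Dnmt1 fl/fl, and 21767795 and 22611219 in replicates 1 and 2 of Dnmt1 KO. The study says in general terms that n counts repeats or animals, and not which of these the samples of a genotype are, so p-values measure only the spread between these samples, which may be technical.

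Levels are given as CPM, counts-per-million values scaled between samples with edgeR's TMM method. The floor was set at 3 counts, which is 0.1196 CPM in the deepest sample and at most 0.152 CPM in the others. Dnmt1, on chromosome 9 from 20907209 to 20959888 (GRCm38), was at 86.6 and 67.0 CPM in the Dnmt1 fl/fl samples and at 37.0 and 42.7 CPM in the Dnmt1 KO samples, in replicate order. Both Dnmt1 KO samples lay below both Dnmt1 fl/fl samples, which fits their labels. The log2 fold change of Dnmt1 was -0.95 (95% interval -1.54 to -0.35), and its adjusted p was 1.00 in edgeR (quasi-likelihood F-test). All 8 macrophage markers looked up (Adgre1, Csf1r, Cd68, Itgam, Fcgr1, Mertk, Cd14 and Lyz2) had a row, with sums of 35511 and 34589 CPM in Dnmt1 fl/fl and 17906 and 21485 CPM in Dnmt1 KO macrophages, most of it Lyz2. The study's methods name centrifugation and culture in RPMI medium after the lavage and no sort, and whether RNA was taken before or after the culture is not given in the sources used here. Lyz2, the lysozyme gene whose promoter drives the Cre, was at 29531 and 28588 CPM in Dnmt1 fl/fl and at 11351 and 15745 CPM in Dnmt1 KO macrophages. Of these 8 it was the 1 with an unadjusted p under 0.05 in edgeR and the 1 whose genotypes did not overlap. The lower sums in Dnmt1 KO thus follow Lyz2, and the median log2 fold change of the 8 genes was -0.04. Only the Dnmt1 KO mice carry this Cre, and whether the Cre or the loss of Dnmt1 bears on Lyz2 was not tested.

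Across the genotypes the 10 genes other than Tlr1 differed little compared with their spread. Tlr1 differed by -0.45 on the log2 scale between genotypes, against 0.31 between the Dnmt1 KO samples and -0.13 between the Dnmt1 fl/fl samples. Of the 10 genes, 0 had an adjusted p under 0.05 in edgeR, and so did 0 of the 12542 genes that passed the filter on low counts (0%). Over all genes limma-voom called 0 and DESeq2 called 1, Pagr1a, named after its values were seen. At an unadjusted p under 0.05 edgeR gave 0 of the 10 and 35 of all genes tested (0.279%), where DESeq2 gave 39 and limma-voom 40. A p above the threshold does not show that levels were equal. The log2 fold changes ran from -0.45 for Tlr1 to 0.17 for Tlr6 with a median of -0.07, against 0.0046 over all genes tested, and 8 of the 10 were negative, or 9 with library totals in place of TMM and 7 after a transcript length correction. Genotypes did not overlap, meaning that both samples of a genotype lay above both samples of the other, in Tlr1 and Tlr6, 2 of the 10, beside 16.7% of all genes tested. Tlr1 was lower in Dnmt1 KO (8.56% of all genes were so placed) and Tlr6 was higher (8.14%). With 2 samples per genotype, the smallest two-sided p that exact permutation allows for any gene taken alone is 0.33.

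In most of the 10 genes the samples of 1 genotype differed more than the genotypes did. The Dnmt1 KO samples were further apart on the log2 scale than the fold change between genotypes in 8 of the 10 genes, all but Tlr1 and Tlr6, and in 82.0% of all genes tested. A difference between single samples varies more than a difference between means, so the sizes are not on an equal footing. The median distance between the Dnmt1 KO samples was 0.60 on the log2 scale over the 10 genes and 0.45 over all genes tested, and between the Dnmt1 fl/fl samples it was 0.32 and 0.19. Dnmt1 KO replicate 1 stood apart over all genes tested, at a median distance of 0.32 to 0.45 from the other samples, while Dnmt1 fl/fl replicate 1 and Dnmt1 KO replicate 2 were the closest pair at 0.13. Dnmt1 KO replicate 1 was the lowest sample in 39.6% and the highest in 38.8% of all genes tested, and Dnmt1 KO replicate 2 the lowest in 25.8% and the highest in 26.6%.

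**Figure D1:**
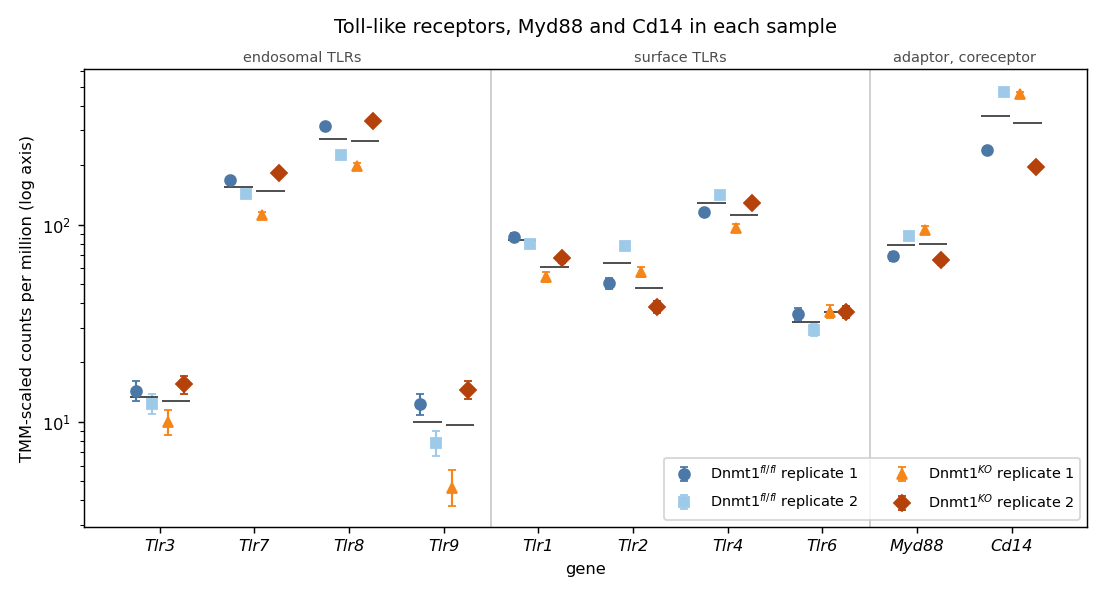
Level of each of the 10 genes in each sample, in TMM-scaled CPM on a log axis; points are samples with exact Poisson 95% intervals for counting error only, and black lines are the means of the 2 samples of a genotype. In Tlr9 the Dnmt1 KO samples stand at 4.65 and 14.5 CPM on either side of the Dnmt1 fl/fl samples at 12.3 and 7.77 CPM.

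Among the 4 endosomal receptors of the 10 genes, Tlr9, which binds DNA with unmethylated CpG, had the widest spread on the log2 scale. It lies on chromosome 9 from 106222598 to 106226883. Tlr9 was at 12.3 and 7.77 CPM in replicates 1 and 2 of Dnmt1 fl/fl, and at 4.65 and 14.5 CPM in replicates 1 and 2 of Dnmt1 KO. Dnmt1 KO replicate 2 was the highest sample and Dnmt1 KO replicate 1 the lowest, so the genotypes overlapped. Those values rest on 343 and 92 counts, and their exact Poisson 95% intervals of 13.04 to 16.2 and 3.74 to 5.70 CPM did not meet. These intervals and the floor allow for counting error and nothing else, and reads copied by PCR are not independent. Dnmt1 fl/fl macrophages had a mean of 10.03 ± 3.18 CPM (SD, n = 2), and Dnmt1 KO macrophages one of 9.59 ± 6.99 CPM (SD, n = 2). Its log2 fold change was -0.06 (standard error 0.58), and its 95% interval ran from -1.49 to 1.37, which spans differences of more than 2-fold either way.

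Tlr8 and Tlr7 are neighbours on chromosome X, from 167242696 to 167264329 and from 167304929 to 167330558. Tlr7 binds single-stranded RNA, and its mouse relative Tlr8 is less well understood. Tlr8 was at 316 and 225 CPM in the Dnmt1 fl/fl samples and at 199 and 334 CPM in the Dnmt1 KO samples. Tlr7 was at 168 and 143 CPM in the Dnmt1 fl/fl samples and at 111 and 183 CPM in the Dnmt1 KO samples. In both genes Dnmt1 KO replicate 1 was the lowest sample and Dnmt1 KO replicate 2 the highest. The log2 fold changes were -0.02 for Tlr8 (95% interval -0.87 to 0.82) and -0.08 for Tlr7 (-0.84 to 0.68), and edgeR gave both an adjusted p of 1.00.

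Tlr3, the receptor for double-stranded RNA, lies on chromosome 8 from 45395665 to 45411080. It was at 14.3 and 12.4 CPM in the Dnmt1 fl/fl samples and at 9.95 and 15.5 CPM in the Dnmt1 KO samples. Here too the Dnmt1 KO samples were the lowest and the highest, and the log2 fold change was -0.07 (95% interval -0.85 to 0.71). In the annotation, 381 exon bases of Tlr3 overlap Gm45542 on the other strand, and whether the counting used strand is not given in the sources used here.

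Tlr3, Tlr7, Tlr8 and Tlr9 therefore stood in 1 order, Dnmt1 KO replicate 2 highest, then Dnmt1 fl/fl replicate 1, Dnmt1 fl/fl replicate 2 and Dnmt1 KO replicate 1. This order was singled out after the values were seen, and 14.4% of all genes tested also had it, among them the surface receptor Tlr5 and Tlr11. Tlr13, another nucleic acid receptor of endosomes, did not. Dnmt1 KO replicate 2 exceeded Dnmt1 KO replicate 1 by 1.55-fold in Tlr3, 1.64-fold in Tlr7, 1.68-fold in Tlr8 and 3.13-fold in Tlr9. The direction of the genotype difference rested on which sample was used. Without Dnmt1 KO replicate 1 the log2 fold changes of Tlr3, Tlr7, Tlr8 and Tlr9 were 0.21, 0.24, 0.30 and 0.54, and without Dnmt1 KO replicate 2 they were -0.42, -0.48, -0.45 and -1.11. Without Dnmt1 fl/fl replicate 1 they were 0.04, 0.05, 0.24 and 0.30, and without Dnmt1 fl/fl replicate 2 they were -0.17, -0.19, -0.25 and -0.35.

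**Figure D2:**
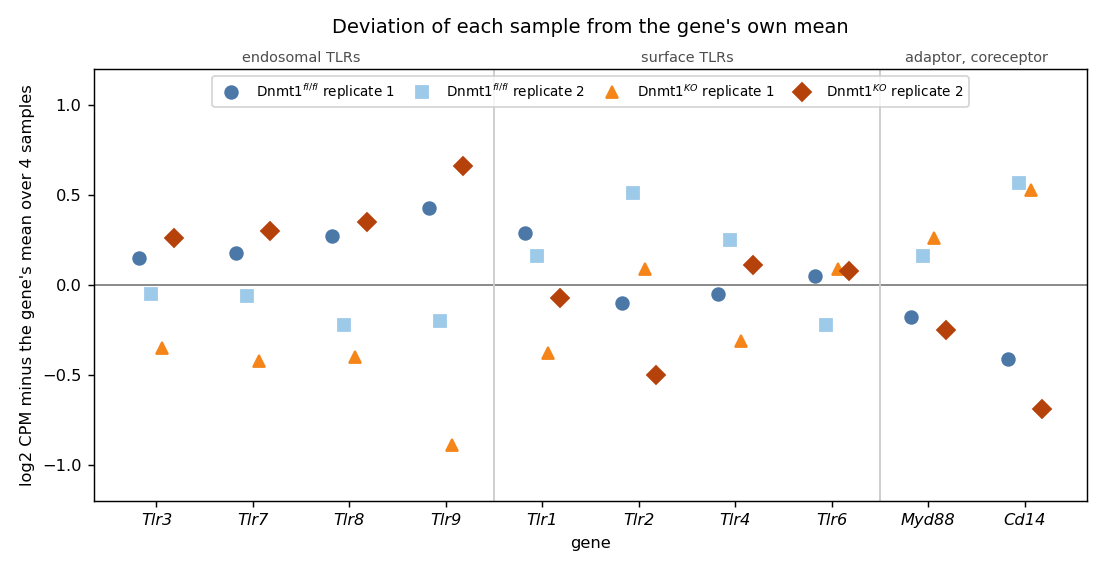
Deviation of each sample's log2 CPM (with 0.5 added to the CPM) from the gene's mean over the 4 samples, for the 10 genes grouped by role; each point is 1 sample. In Tlr3, Tlr7, Tlr8 and Tlr9 the samples fall in the same order, from -0.89 to 0.66 in Tlr9, and in Cd14 the order differs, from -0.69 to 0.57.

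The deviation of the samples also followed transcript length. Tested genes were split by transcript length into 3 equal groups. In the group with the longest transcripts, the median deviation from the gene mean on the log2 scale was 0.118 and -0.00824 in replicates 1 and 2 of Dnmt1 fl/fl, and -0.229 and 0.130 in replicates 1 and 2 of Dnmt1 KO. In the group with the shortest it was -0.105, 0.00909, 0.227 and -0.115 in the same samples. With this trend removed from each sample, Tlr3, Tlr7, Tlr8 and Tlr9 still had their order, and Dnmt1 KO replicate 2 exceeded Dnmt1 KO replicate 1 by 1.33-fold, 1.48-fold, 1.59-fold and 2.94-fold. The log2 fold change of Tlr8 between genotypes was then 0.01, and the part of length in the order beyond this was not tested.

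Unc93b1, the chaperone of these receptors, was at 848 and 757 CPM in Dnmt1 fl/fl and at 715 and 960.1 CPM in Dnmt1 KO macrophages. Its samples had the order of Tlr3, Tlr7, Tlr8 and Tlr9, with a log2 fold change of 0.06. Tlr13, an endosomal receptor for bacterial ribosomal RNA on chromosome X from 106143204 to 106160493, did not have it. Tlr13 was at 348 and 331 CPM in Dnmt1 fl/fl and at 431 and 327 CPM in Dnmt1 KO macrophages, with Dnmt1 KO replicate 1 the highest sample and a log2 fold change of 0.16. The other TLR genes were low. Tlr5, the flagellin receptor, ran from 1.21 to 2.37 CPM, and Tlr11 from 0.353 to 3.73 CPM, and both had the order of Tlr9. Tlr12 had 6 to 10 counts per sample and did not pass the filter on low counts.

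Promoter sequence is shown for the endosomal receptors and for Tlr2 because Dnmt1 acts at CpG dinucleotides, and these windows differ in how many they hold. Each is the 250 bases before a start in RefSeq on GRCm38.p6, 5′ to 3′ on the gene's strand, in lower case with every CpG in capitals. Of the 10 genes, 7 matched an entry by symbol (Tlr1, Tlr2, Tlr3, Tlr6, Tlr8, Tlr9 and Myd88), and Tlr4, Tlr7 and Cd14 are named only. RefSeq and GENCODE place some starts differently, so the Tlr3 window lies inside the GENCODE bounds of that gene and the Tlr2 window overlaps them. The Tlr9 window, chr9:106222348-106222597 on the plus strand, held 0 CpG, as did 7.90% of 32851 promoter windows of this length. The Tlr8 window, chrX:167264330-167264579 on the minus strand, held 1, and 18.8% of windows held 1 or fewer. The Tlr3 window, chr8:45410381-45410630 on the minus strand, held 6, the median of all windows. The Tlr2 window, chr3:83841609-83841858 on the minus strand, held 11, the highest count among the 7 genes. Not shown are Myd88 with 9, Tlr1 with a window of 1 and a window of 8, and Tlr6 with a window of 4 and a window of 6, so the surface receptors span low and high counts. Of all windows, 92.1% held CG at least once, and a CG there only describes the reference, since DNA methylation was not analysed here.
Tlr9: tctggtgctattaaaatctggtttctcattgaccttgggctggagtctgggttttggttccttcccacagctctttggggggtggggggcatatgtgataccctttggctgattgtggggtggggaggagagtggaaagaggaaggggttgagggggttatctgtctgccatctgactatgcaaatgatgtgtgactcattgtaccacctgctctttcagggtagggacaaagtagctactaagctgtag
Tlr8: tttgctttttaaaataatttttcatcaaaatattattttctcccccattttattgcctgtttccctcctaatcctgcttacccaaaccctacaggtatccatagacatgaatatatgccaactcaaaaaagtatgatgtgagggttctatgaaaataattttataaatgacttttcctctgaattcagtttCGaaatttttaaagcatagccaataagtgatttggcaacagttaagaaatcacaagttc
Tlr3: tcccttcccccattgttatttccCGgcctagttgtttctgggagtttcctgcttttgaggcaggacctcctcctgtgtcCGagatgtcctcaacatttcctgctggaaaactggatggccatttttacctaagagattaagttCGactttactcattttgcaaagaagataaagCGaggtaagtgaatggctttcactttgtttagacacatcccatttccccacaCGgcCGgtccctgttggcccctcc
Tlr2: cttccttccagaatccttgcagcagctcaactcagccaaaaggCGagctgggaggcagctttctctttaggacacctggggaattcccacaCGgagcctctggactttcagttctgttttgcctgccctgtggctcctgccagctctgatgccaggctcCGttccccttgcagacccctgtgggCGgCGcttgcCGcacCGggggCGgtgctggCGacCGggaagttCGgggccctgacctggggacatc

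At the cell surface, Tlr1 showed the difference that was largest in size among the 10 genes, with TMM scaling on all 4 samples. With library totals Tlr1 and Tlr2 both stood at a log2 fold change of -0.51. With a sample left out other genes could differ more, as Tlr9 at -1.11 without Dnmt1 KO replicate 2. Tlr1 pairs with Tlr2 to bind triacylated lipoproteins and lies on chromosome 5 from 64924679 to 64933563. It was at 86.8 and 79.5 CPM in the Dnmt1 fl/fl samples and at 54.3 and 67.5 CPM in the Dnmt1 KO samples. The genotypes did not overlap, with both Dnmt1 KO values the lower. Mean levels were, for Dnmt1 fl/fl, 83.1 ± 5.17 CPM (SD, n = 2) and, for Dnmt1 KO, 60.9 ± 9.35 CPM (SD, n = 2). Its log2 fold change was -0.45 (standard error 0.23, 95% interval -1.01 to 0.12), with an adjusted p of 1.00 from edgeR over all genes. With each sample left out in turn it ran from -0.61 to -0.30.

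Tlr6, which pairs with Tlr2 for diacylated lipoproteins, is the neighbour of Tlr1, on chromosome 5 from 64952031 to 64960097. It was at 35.2 and 29.2 CPM in the Dnmt1 fl/fl samples and at 36.2 and 36.1 CPM in the Dnmt1 KO samples. Dnmt1 fl/fl replicate 1 lay within the counting interval of Dnmt1 KO replicate 1, 33.6 to 38.9 CPM, and Dnmt1 fl/fl replicate 2 lay below it. For Tlr6 the log2 fold change was 0.17 (95% interval -0.36 to 0.69). It was 0.31 without Dnmt1 fl/fl replicate 1 and 0.04 without Dnmt1 fl/fl replicate 2. With library totals in place of TMM scaling the genotypes overlapped, at 35.8 and 30.3 CPM against 32.9 and 37.7 CPM.

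Tlr1 and Tlr6 share coding sequence. Of the 100-base stretches in the GENCODE M21 transcripts of Tlr1, 7.89% also occur in Tlr6, and 7.09% of those of Tlr6 occur in Tlr1. The longest identical run has 229 bases, all coding in both genes, at chr5:64925537-64925765 in Tlr1 and chr5:64953828-64954056 in Tlr6, on the minus strand of GRCm38. Its first 120 bases, shown because both genes hold them unchanged, are given 5′ to 3′.
Shared run: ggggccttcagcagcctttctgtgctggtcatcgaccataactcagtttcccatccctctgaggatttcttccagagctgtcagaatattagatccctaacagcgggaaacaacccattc
Stretches of 100 bases are not the length of the reads, so this is no measure of how many reads match both genes. How such reads were divided is not given in the sources used here, and the counts of both genes hold decimals, as in 1780.53 counts of Tlr1 and 722.57 counts of Tlr6 in Dnmt1 fl/fl replicate 1.

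Tlr2, the shared partner, lies on chromosome 3 from 83836272 to 83841767. It was at 50.4 and 77.5 CPM in the Dnmt1 fl/fl samples and at 57.5 and 38.3 CPM in the Dnmt1 KO samples. The genotypes overlapped, with Dnmt1 KO replicate 1 above Dnmt1 fl/fl replicate 1, and the log2 fold change was -0.42 (95% interval -1.22 to 0.39). Without Dnmt1 fl/fl replicate 2 it was -0.07 and without Dnmt1 KO replicate 1 it was -0.75.

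Tlr4, the lipopolysaccharide receptor, lies on chromosome 4 from 66827584 to 66930284. It was at 115 and 141 CPM in the Dnmt1 fl/fl samples and at 96.2 and 128 CPM in the Dnmt1 KO samples. Dnmt1 KO replicate 1 was the lowest sample and the genotypes overlapped, with a log2 fold change of -0.19 (95% interval -0.83 to 0.45). Without Dnmt1 fl/fl replicate 2 it was -0.04, and without Dnmt1 KO replicate 1 it was 0.00.

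Cd14 and Myd88 were high in other samples than Tlr3, Tlr7, Tlr8 and Tlr9. Cd14, which hands lipopolysaccharide to Tlr4, lies on chromosome 18 from 36725067 to 36726798. It was at 240 and 472 CPM in the Dnmt1 fl/fl samples and at 459 and 197 CPM in the Dnmt1 KO samples. Dnmt1 fl/fl replicate 2 and Dnmt1 KO replicate 1 were thus high in each genotype. For Cd14 the log2 fold change was -0.12 (95% interval -1.38 to 1.14), and it was -0.86 without Dnmt1 KO replicate 1 and 0.37 without Dnmt1 KO replicate 2. Leaving out Dnmt1 fl/fl replicate 1 or 2 gave -0.53 or 0.46.

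Myd88, the adaptor, lies on chromosome 9 from 119335934 to 119341411. It was at 69.2 and 87.6 CPM in the Dnmt1 fl/fl samples and at 94.2 and 66.0 CPM in the Dnmt1 KO samples, with a log2 fold change of 0.03 (95% interval -0.65 to 0.71). Its 2 highest samples were those of Cd14, and the same pair was highest in Tlr2, so 3 of the 10 genes had it, beside 28.7% of all genes tested. This pair was also singled out after the values were seen. The log2 fold change of Myd88 was -0.25 without Dnmt1 KO replicate 1, 0.26 without Dnmt1 KO replicate 2, and -0.06 with library totals in place of TMM scaling. In the annotation, 290 exon bases of Myd88 overlap Acaa1a on the other strand.

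Levels of different genes were compared as CPM per kilobase of merged exons, averaged over the 4 samples. Cd14 was highest at 197 ± 83.2 (SD over 4 samples), followed by Tlr8 at 74.8 ± 18.6, Tlr7 at 37.1 ± 7.72 and Myd88 at 30.8 ± 5.36. Tlr4, Tlr1 and Tlr2 were at 21.7, 21.5 and 18.6 CPM per kilobase, Tlr6 at 9.17, Tlr9 at 2.82 and Tlr3 at 2.50. Of the 9 neighbouring pairs in this order, 4 had overlapping sample ranges, namely Tlr7 with Myd88, Tlr4 with Tlr1, Tlr1 with Tlr2, and Tlr9 with Tlr3. On this scale Tlr13, at 83.4 ± 11.3, overlapped with Tlr8. With the longest transcript in place of merged exons Tlr3 stood above Tlr9.

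The surface receptors Tlr1, Tlr2, Tlr4, Tlr5 and Tlr6 had a median log2 fold change of -0.19 and the nucleic acid receptors Tlr3, Tlr7, Tlr8, Tlr9 and Tlr13 one of -0.06, and of the 3 other TLR genes tested (Tlr5, Tlr11 and Tlr13) all overlapped, with a median of 0.16. The rest of the pathway was read from gene lists written by role, in which 0 genes had an adjusted p under 0.05 in edgeR, DESeq2 or limma-voom and 0 had an unadjusted p under 0.05 in edgeR. Genes named from them are given as values without a test of their own. Of 9 coreceptors and accessory proteins, 0 had non-overlapping genotypes, beside 16.7% of all genes tested. Among the most abundant, the scavenger receptor Cd36 was at 2726 and 1944 CPM in Dnmt1 fl/fl and at 2352 and 1449.55 CPM in Dnmt1 KO macrophages, and the integrin chain Itgb2 was at 1964 and 2460 CPM against 3176 and 1807 CPM. Both overlapped. Of 11 chaperones and trafficking genes, 1 did not overlap, Hgs of endosomal sorting, with a log2 fold change of 0.08. The median of that list was 0.05, and Hsp90b1, the chaperone gp96, stood at 0.01.

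Endolysosomal proteases and nucleases cut the endosomal receptors or their ligands. All 11 genes tested had a positive log2 fold change, or 9 with library totals in place of TMM, where Pld4 and Rnaset2b (named after their values were seen) were negative, with a median of 0.26 against 0.0046 over all genes tested, and 5 were higher in Dnmt1 KO without overlap, beside 8.14% of all genes tested, while 6 overlapped. The 5 were Ctsk, Pld3, Rnaset2a, Ctsh and Ctss. With library totals in place of TMM, Ctsh and Ctss overlapped and Ctsl did not, so 4 were without overlap. Ctsk, cathepsin K, was at 155 and 129 CPM in Dnmt1 fl/fl and at 276 and 174 CPM in Dnmt1 KO macrophages (log2 fold change 0.66). Pld3, a nuclease of single-stranded DNA, was at 722 and 518 CPM against 899 and 778 CPM (log2 fold change 0.43). Dnmt1 KO replicate 1 was the highest sample in both genes and in 8 of the 11, beside 38.8% of all genes tested. Rnaset2a, Ctsh and Ctss stood at 0.22, 0.14 and 0.13, and Ctsb, the most abundant gene of the list, overlapped at 0.26. Rnase2a had no row.

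Of 5 TIR adaptors tested, Ticam1 (TRIF), which carries the signal of Tlr3, did not overlap. It was at 25.3 and 23.0 CPM in Dnmt1 fl/fl and at 29.6 and 29.4 CPM in Dnmt1 KO macrophages (log2 fold change 0.29). Pik3ap1, the most abundant of that list, stood at -0.03, and Sarm1 had no row. Of 19 kinase, TRAF, TAK1 and IKK complex genes, 16 had a negative log2 fold change, or 11 after the length correction, with a median of -0.07. Dnmt1 KO replicate 1 was the lowest sample in 14 of the 19, beside 39.6% of all genes tested. Genotypes did not overlap for Ikbke, Traf3 and Chuk, lower in Dnmt1 KO at -0.41, -0.33 and -0.19, and for Traf6, higher at 0.12, so 4 of the 19, beside 16.7% of all genes tested. With library totals Traf3, Chuk and Traf6 overlapped. Ikbke, an IKK-related kinase, was at 199 and 225 CPM in Dnmt1 fl/fl and at 128 and 191 CPM in Dnmt1 KO macrophages. Ikbkb overlapped at -0.13.

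Downstream, 1 of 13 transcription factors did not overlap, Nfkb2 at -0.25, and the list had a median of -0.10. Its most abundant genes Irf5 and Atf3 stood at 0.19 and -0.10. Among 15 inhibitors of TLR signalling, with a median of -0.08, 2 did not overlap and both were lower in Dnmt1 KO, beside 16.7% of all genes tested without overlap and 8.56% lower without overlap. Tnfaip3, the ubiquitin-editing enzyme A20, was at 93.9 and 66.7 CPM in Dnmt1 fl/fl and at 62.8 and 44.7 CPM in Dnmt1 KO macrophages (log2 fold change -0.58). Tank was at 57.1 and 71.6 CPM against 41.5 and 52.0 CPM (log2 fold change -0.46). Trim30a and Dusp1, the most abundant inhibitors, overlapped at -0.36 and -0.35.

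Transcripts that TLR ligands induce in macrophages shared the high samples of Cd14, Myd88 and Tlr2, and so did several markers of other cell types given below. In 11 of the 13 genes tested, Dnmt1 fl/fl replicate 2 and Dnmt1 KO replicate 1 were the highest samples, beside 28.7% of all genes tested, and in 9 of the 16 with a row Dnmt1 KO replicate 2 was the lowest, as in 25.8% of all genes tested. The summed level of the 16 was 267 and 381 CPM in Dnmt1 fl/fl and 465 and 158 CPM in Dnmt1 KO macrophages. Cxcl2, a neutrophil chemoattractant, was at 21.05 and 32.6 CPM in Dnmt1 fl/fl and at 38.7 and 9.24 CPM in Dnmt1 KO macrophages. Il1rn, the interleukin-1 receptor antagonist, was at 158 and 154 CPM against 229 and 62.8 CPM. Genotypes overlapped in all 13, with a median log2 fold change of -0.09. Il6, Nos2 and Ifnb1 had no row, and Il12b, Il10 and Cxcl1 did not pass the filter.

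Other sensors were read the same way. Of 9 cytosolic nucleic acid sensors, 8 had a negative log2 fold change, or 7 after the length correction, with a median of -0.23. Genotypes did not overlap for Ifih1 (MDA5) and Cgas, at -0.37 and -0.28, and for Sting1, at 0.07, so 3 of the 9. The most abundant, Ifi204 and Dhx58, overlapped at -0.24 and -0.09. Of 10 other pattern recognition receptors, Marco and Nod2 were lower without overlap, at -0.54 and -0.38, while Msr1 and Clec7a, the most abundant, overlapped at -0.22 and 0.00. Among 13 immediate early genes, with a median of -0.10, Egr1 was lower without overlap at -0.46, Jun stood at 0.05, and Dnmt1 KO replicate 2 was the lowest sample in 10, beside 25.8% of all genes tested. Of 13 mitochondrially encoded mRNAs, with a median of 0.05, mt-Nd3 and mt-Nd6 were higher without overlap at 0.49 and 0.22, and mt-Co1 and mt-Cytb overlapped at 0.05 each. For each of these counts, the share of all genes tested without overlap is 16.7%. Several of the placements rest on the scaling. With library totals in place of TMM the genotypes overlapped in Hgs, Cgas and Sting1, and after the length correction in Hgs, Ctss, Traf3, Nfkb2, Tnfaip3, Sting1 and mt-Nd3. Non-overlap was also gained, from 1 to 3 of the immediate early genes and from 1 to 2 of the transcription factors with library totals, and from 2 to 5 of the mitochondrial mRNAs after the length correction (4 higher, 1 lower). The genes gained in these counts were Egr2 and Nr4a1, Relb, and mt-Atp6, mt-Atp8, mt-Nd4l and mt-Co3. Library totals also added Irak2 and Nlrp3 (lower in Dnmt1 KO) and Ctsl (higher). The length correction also added Ap3d1, Slc15a4 and Socs1 (higher) and Nr4a1 and Cd3g (lower). All of these gained genes were named after their values were seen.

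Markers of other cell types differed between the samples too, and in bulk RNA fewer cells of a type cannot be told apart from less RNA per cell. All 10 B cell markers had a row, and in all 10 Dnmt1 KO replicate 2 was the highest sample and Dnmt1 KO replicate 1 the lowest. Over all genes tested, Dnmt1 KO replicate 2 was the highest in 26.6% and Dnmt1 KO replicate 1 the lowest in 39.6%. Their summed level was 345 and 518 CPM in Dnmt1 fl/fl and 135 and 574 CPM in Dnmt1 KO macrophages. Ighm, the most abundant, was at 196 and 286 CPM against 89.6 and 309 CPM, and Cd79a at 30.8 and 54.0 CPM against 13.7 and 54.7 CPM. The B cell sum had the extremes of Tlr3, Tlr7, Tlr8 and Tlr9 but placed Dnmt1 fl/fl replicate 2 above replicate 1, where these receptors had the reverse. Its part in their order was not tested.

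All 6 conventional dendritic cell markers were lowest in Dnmt1 KO replicate 1, beside 39.6% of all genes tested. Their sums were 42.3 and 40.8 CPM in Dnmt1 fl/fl and 23.6 and 53.1 CPM in Dnmt1 KO. Cd209a, the most abundant, was at 20.4 and 17.0 CPM against 9.04 and 21.2 CPM, and 3 of the 6 (Cd209a, Flt3 and Clec9a) had the order of Tlr9. The 6 plasmacytoid dendritic cell markers summed to 34.4 and 39.8 CPM in Dnmt1 fl/fl and 17.7 and 48.2 CPM in Dnmt1 KO, led by Spib and then Ly6d, which had other orders, while Siglech and Ccr9 had that of Tlr9. Clec9a, Siglech and Ccr9 were named after their values were seen. Among the macrophage markers, Adgre1 and Mertk, singled out after their values were seen, also had that order, while Itgam stood highest in Dnmt1 fl/fl replicate 2. For each of these lists, the share of all genes tested with the order of Tlr9 is 14.4%. The part of these cell types in the receptor values was not tested.

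Neutrophil markers were high where Tlr3, Tlr7, Tlr8 and Tlr9 were low, and Tlr13 was highest in the same sample as they were. All 8 of the 12 that had a row were highest in Dnmt1 KO replicate 1, beside 38.8% of all genes tested. The sums of these 8 were 215 and 319 CPM in Dnmt1 fl/fl and 882 and 217 CPM in Dnmt1 KO macrophages. Csf3r, the most abundant, was at 158 and 137 CPM against 169 and 159 CPM, without overlap, and S100a9 at 5.55 and 60.5 CPM against 320.1 and 8.35 CPM. The granule genes Camp, Ngp, Elane and Mpo had no row, and Ly6g did not pass the filter. S100a9, like Cd14, Myd88 and Tlr2, was highest in Dnmt1 fl/fl replicate 2 and Dnmt1 KO replicate 1, as were 4 of the 7 neutrophil markers tested, beside 28.7% of all genes tested. Mesothelial and fibroblast markers were highest in Dnmt1 KO replicate 1 in 7 of 8, beside 38.8% of all genes tested. Their sums were 39.7 and 56.3 CPM against 109.8 and 25.6 CPM, led by Col3a1 and Col1a2. In 6 of the 8 the highest samples were those of Cd14, beside 28.7% of all genes tested. The part of these markers' cells in the values of Cd14, Myd88, Tlr2 and the induced transcripts was not tested.

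Markers of resident peritoneal macrophages differed as well. Of 7 genes of resident large macrophages, 6 were lowest in Dnmt1 KO replicate 1, beside 39.6% of all genes tested. Icam2 and Timd4 were lower in Dnmt1 KO without overlap, at -0.72 and -0.66. Prg4, in the same list, was at 203 and 82.7 CPM in Dnmt1 fl/fl and at 28.4 and 182 CPM in Dnmt1 KO macrophages. Cd9, its most abundant gene, was at 495 and 485 CPM against 856 and 341 CPM, and the list's sums were 925 and 826 CPM against 993 and 729 CPM.

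Ccr2, a receptor of recruited monocytes, was at 498 and 682 CPM in Dnmt1 fl/fl and at 376 and 594 CPM in Dnmt1 KO macrophages, with Dnmt1 KO replicate 1 the lowest sample. Its part in the receptor values was not tested.

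T cell markers summed to between 24.4 and 34.8 CPM, led by Lck, with Trac higher and Cd5 and Cd4 lower in Dnmt1 KO without overlap. NK cell markers summed to between 15.7 and 31.3 CPM, led by Gzma and Klrb1c, and mast cell markers to between 8.94 and 12.7 CPM, led by Cma1 and Cpa3, both lower in Dnmt1 KO without overlap. Of 7 eosinophil markers, Prg2, Epx, Ear1 and Ear6 had no row, and the rest, led by Ccr3 and Siglecf, summed to between 7.67 and 14.1 CPM. Erythroid and platelet markers summed to between 86.0 and 163 CPM, nearly all of it Pf4, which macrophages also transcribe. Ppbp, next in abundance, was at most 1.97 CPM, Pf4 was higher in Dnmt1 KO without overlap, and Hba-a1 and Alas2 had no row. Non-overlap in the marker lists stands beside the same 16.7% of all genes tested. Among the markers, Icam2, Csf3r and Trac overlapped with library totals in place of TMM, and Csf3r, Trac, Cpa3 and Pf4 after the length correction.

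**Figure D3:**
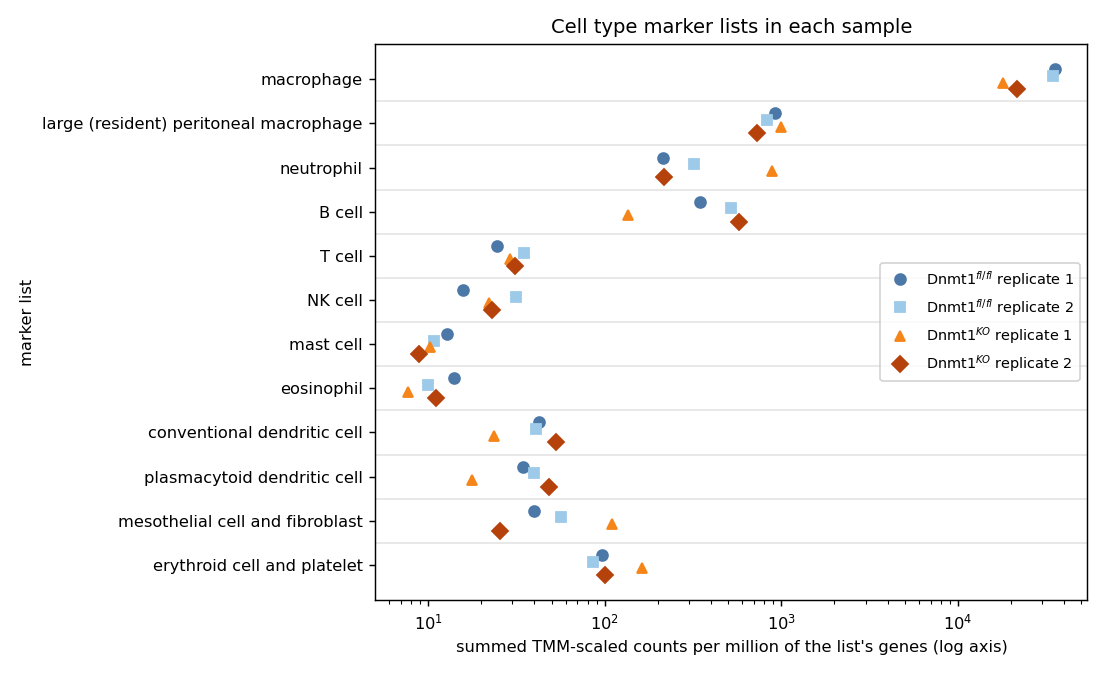
Summed TMM-scaled CPM (log axis) of the cell type marker lists described in each of the 4 samples; each point is 1 sample. The B cell sum spans 135 to 574 CPM and the neutrophil sum 215 to 882 CPM, with Dnmt1 KO replicate 1 at the low end of the first and the high end of the second.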

How the data were processed

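RNA of 2 Dnmt1 fl/fl and 2 Dnmt1 KO macrophage samples was compared from a table of estimated counts (expected counts) per gene that the authors made with HISAT2 2.0.5 and featureCounts 1.5.0-p3. The table is not normalized, and about 3 in 4 of its values are whole. Counts were rounded, filtered with filterByExpr, scaled with TMM and tested with the edgeR 4.0.16 quasi-likelihood F-test in R 4.3.3, with Benjamini-Hochberg adjustment over 12542 genes and no covariate. DESeq2 1.42.0, limma 3.58.1 (voom), other scalings and filters, a replicate block, a transcript length correction and leaving out each sample served as alternatives. Lengths came from GENCODE M21 (GRCm38) for 99.5% of 13825 symbols. The code was tested on simulated data. Members and lists were chosen with earlier results of these data known. Genes named are Dnmt1, the members, other TLR genes, and from each list up to 4 non-overlapping genes with the largest log2 fold changes and the 2 most abundant. A marker list is not reported here.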

Additional observations from a re-analysis of the deposited data

How the results depend on the processing

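Of the 10 genes, 0 were called by edgeR, DESeq2 or limma-voom in any fit, and their lowest adjusted p was 1.00 on all 4 samples and 0.0905 with a sample left out. At an unadjusted p under 0.05 edgeR gave 35 of all genes tested, DESeq2 39 and limma-voom 40. Over all genes, edgeR called 0, limma-voom 0 and DESeq2 1, Pagr1a, with an adjusted p of 8.88e-07. Pagr1a was at 0.146 and 0.678 CPM in Dnmt1 fl/fl and 6.82 and 10.2 CPM in Dnmt1 KO. Its value in Dnmt1 fl/fl replicate 1 lies at the floor of 3 counts, 0.146 CPM in that sample, and the cause of the call was not tested. With DESeq2 size factors edgeR gave 35 genes at an unadjusted p under 0.05, with library totals 40, unfiltered 60, under a minimum of 10 counts per sample 37 and after the length correction 47. A block of same-numbered samples called 0 genes and gave 34 at an unadjusted p under 0.05, or 49 with the length correction added. The crossed pairing, chosen after seeing the data, called 3 genes and gave 297 at an unadjusted p under 0.05.

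With each sample left out in turn, where the lone sample is assumed to vary like the others, between 0 and 674 genes were called and between 41 and 3418 had an unadjusted p under 0.05. The highest counts came without Dnmt1 KO replicate 2. Non-overlap was met by 2 to 9 of the 10 genes, as 1 sample overlaps less readily, and the median log2 fold change ran from -0.42 to 0.08. The log2 fold change ran from -0.42 to 0.21 for Tlr3, -0.48 to 0.24 for Tlr7, -0.45 to 0.30 for Tlr8, -1.11 to 0.54 for Tlr9, -0.25 to 0.26 for Myd88 and -0.86 to 0.46 for Cd14. Tlr1, Tlr2 and Tlr6 kept their direction, at -0.61 to -0.30, -0.75 to -0.07 and 0.04 to 0.31, and Tlr4 ran from -0.42 to 0.00.

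On all 4 samples, Tlr8 turned to 0.01 with the length correction and Myd88 to -0.06 with library totals, where 1 of the 10 genes had non-overlapping genotypes in place of 2. With the longest transcript, 2 ranks of level per length changed, those of Tlr3 and Tlr9. Among the genes that the naming rule chose besides the 10, 11 changed sign in a fit on all 4 samples. They were Clec7a, Gzma, Hsp90b1, Itgam, Jun, Pik3ap1, Ppbp, Tlr5, Tlr11, mt-Co1 and mt-Cytb. The cause was not tested. With 2 samples per genotype and a common dispersion of 0.0837, the intervals of the 10 genes had a median width of 1.54 on the log2 scale, which limits what could be detected.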
